A study of Mus musculus with 4 samples.

Results

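Cadherins are surface proteins that hold cells together through calcium-dependent extracellular repeats. The genes described here are the cadherins with a number in their name and the protocadherins that lie outside the clustered arrays. The Celsr genes and the Fat genes are also included. Members were matched by a rule on symbols, but the set was chosen with earlier results of these data known. The rule found 42 of them among 78334 gene identifiers. The clustered alpha, beta and gamma protocadherins are not among them.

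In the retina these proteins are known for sorting neurons into layers and for matching synaptic partners. Classical cadherins bind their own kind on the opposing cell and connect through catenins to the actin cytoskeleton. Delta protocadherins adhere more weakly and act largely through their cytoplasmic tails, Celsr proteins work with the planar cell polarity system, and Fat proteins are very large cadherins that signal to growth and polarity pathways.

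Messenger RNA was counted in wild-type mouse cells that were panned for Thy1 and sorted for mCherry as retinal ganglion cells, whose axons leave the eye through the optic nerve. All cells came from eyes given an adeno-associated virus of serotype 2 (AAV2) carrying mCherry at 8 weeks of age, with an optic nerve crush (ONC) 2 weeks later and collection 2 weeks after the crush. In one group the virus also expressed the anti-miR132-3p shRNA, a hairpin against miR-132-3p, and in the control group a scramble shRNA. Both groups therefore carried the virus, the reporter and the crush. Mice of both sexes, 8 to 12 weeks old, were used, 10 retinas were pooled per condition, about 40% of ganglion cells took up the virus, and about 5000 cells entered each replicate. The control columns are named for mCherry, which both vectors express, and were taken as the scramble group because the other columns name miR132. Every direction below rests on that reading.

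The table held 2 libraries per group, of 1845090 and 1846637 counts (scramble) and of 1732416 and 1731199 counts (anti-miR132-3p). The libraries of a group differed by no more than sampling noise (a chi-square test of their counts gave 1.02 and 1.00 per degree of freedom, against 4.01 to 4.03 for libraries of different groups). A pair thus stands for 1 sample: no SD is given, differences between groups lack a replicate check, and every p-value is about the reads in hand and not about the conditions. Levels are CPM, a gene's counts relative to the library total, scaled by edgeR's TMM factors, and the intervals in brackets are exact 95% (Clopper-Pearson) intervals that cover counting error only. The limit that a count of 0 allows, 3 counts, lies at 1.63 to 1.73 CPM depending on the library. Ganglion cell markers summed to 3131 and 3123 CPM in the scramble libraries and to 3130 and 3082 CPM in the others. Single markers, however, differed in both directions: of 13 tested, 3 were called higher (Thy1, Tubb3 and Nefm) and 3 lower (Pou4f1, Nefh and Gap43). Of all tested genes, 13.5% were called higher and 10.4% lower. Amacrine markers summed to 2594 to 2765 CPM over the 4 libraries, most of it from Pax6, which ganglion cells also make. A difference in such bulk samples can come from fewer cells of a type or from less RNA per cell, which cannot be told apart.

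The microRNA that the hairpin targets is shown first, because it fixes the letters searched for in the transcripts of these genes. The mature sequence is from RefSeq (GRCm38.p6, chr11:75173723-75173744, plus strand), with the seed, bases 2 to 8, in capitals. The inserts are those given in the labels, and the capitals in the anti-miR132-3p insert mark the letters complementary to the seed.
miR-132-3p: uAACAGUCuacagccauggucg
anti-miR132-3p insert: cgaccatggctgtaGACTGTTa
scramble insert: tcgagggcgacttaaccttagg

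Matches to that seed were sparse in the 3' UTRs scanned for these genes. A single annotated 3' UTR was scanned per gene, that of the coding transcript with the longest coding part and, among equals, the longest 3' UTR. Other annotated 3' UTRs of the same gene were not scanned. For Cdh10, for example, 554 bases were scanned, where the gene has 10051 bases of annotated exon. Of the 40 members with a 3' UTR in GENCODE M21, 0 held the 8mer GACTGTTA in the 3' UTR scanned. The 7mer-m8 match GACTGTT without the final A was found in 1, Celsr1, and the 7mer-A1 match ACTGTTA, counted where the base before it did not extend it to the 8mer, in 5. Among the 26 tested members with a 3' UTR, 3 held any of these matches (11.5%), against 20.8% of the 10278 tested genes with one, although the members' 3' UTRs were longer (median 1791 against 1098 bases). The matched letters are in capitals within the sense strand of the 3' UTR, for every matched member except Fat2, which was listed at 0. A match is a description of the letters and not a site shown to be used.
Cdh4 7mer-A1: accacaaaagcACTGTTAaaacaaaacaa
Celsr3 7mer-A1: agggacaggtaACTGTTAggatcctgctc
Pcdh17 7mer-A1: tagtacgaatcACTGTTAcgctatatcaa
Pcdh8 7mer-A1: gatttcaagttACTGTTAtttaattacat
Celsr1 7mer-m8: acttcagcatgGACTGTTgtctgaatcag

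Of the 42 members, 27 passed edgeR's filter on low counts and were tested, 7 more had between 3 and 21 counts over all libraries, and 8 were listed at 0 in all 4 libraries. With the anti-miR132-3p shRNA 6 tested members rose and 1 fell at a Benjamini-Hochberg adjusted p under 0.05 by edgeR's quasi-likelihood test. Over all 11427 tested genes, 13.5% were called higher and 10.4% lower. Cdh22, Cdh24, Fat4, Pcdh18, Cdh4 and Fat3 rose, by 1.41-fold to 3.14-fold, and Cdh13 fell. Cdh22 and Cdh24, which had the largest folds of these, passed the filter only with the anti-miR132-3p libraries, in which they were high. The median log2 fold change was 0.19 over the tested members and -0.0030 over all tested genes, and 20 of the 27 members had a value above 0, against 49.6% of all genes.

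**Figure D1:**
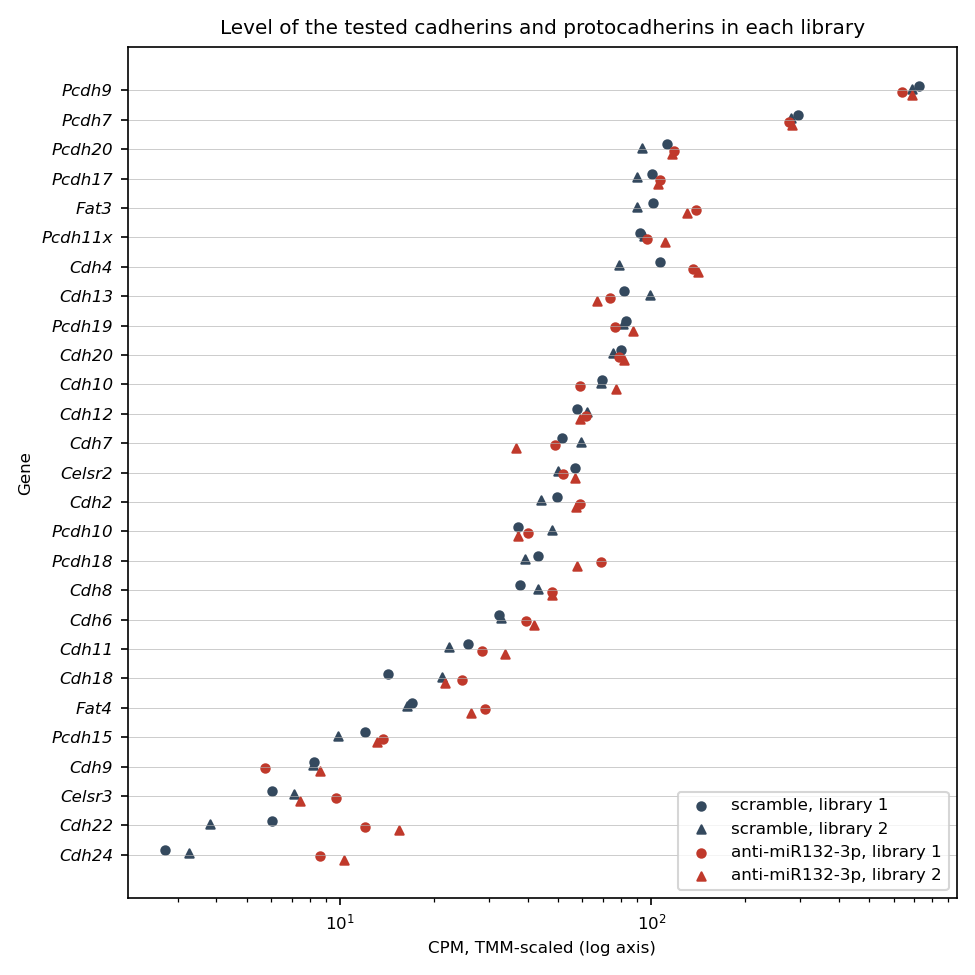
Level of each of the 27 tested members in each library, in TMM-scaled CPM on a log axis, with circles for library 1 and triangles for library 2 of each group. Pcdh9 stands highest in all 4 libraries (638 to 726 CPM), and in Cdh22 and Cdh24, at the low end, the red and dark symbols are well apart.

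Protocadherin message dominated the family. Pcdh9, a delta-1 protocadherin of developing and adult neurons, had 1326 and 1264 scramble counts and 1115 and 1203 anti-miR132-3p counts. It held 31.2% and 27.7% of all counts of the family in the scramble and anti-miR132-3p groups. Both anti-miR132-3p libraries lay below both scramble libraries, at 638 and 689 against 726 and 690 CPM, but the last gap was small and the difference was not called (log2 fold change -0.09, edgeR adjusted p = 0.136).

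Levels of different genes were compared per kilobase of annotated exon. On that scale Pcdh9 was at 104 CPM per kilobase in the scramble group and 97.8 in the anti-miR132-3p group. Pcdh7 followed at 27.3 and 26.4 CPM per kilobase. Cdh20 (19.4 and 20.0) and Pcdh20 (18.7 and 21.4) came next, and their order was reversed between the groups. Cdh4 was at 12.8 and 19.1 CPM per kilobase. On this scale the most abundant classical cadherins were Cdh20 and Cdh4, and N-cadherin, Cdh2, was at 5.83 and 7.20 CPM per kilobase. The order depends on the length used. Cdh10 has 10051 bases of annotated exon but a principal transcript of 3407 bases, while for Cdh20 both lengths are 4012 bases.

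Among the classical type I cadherins, which carry most strong adhesion between like cells, 1 of 2 tested members rose, where 13.5% of all tested genes did. Cdh4, R-cadherin, first described in the retina, had 195 and 144 counts in the scramble libraries and 238 and 247 in the anti-miR132-3p ones. The scramble libraries were the more unequal pair, and both anti-miR132-3p libraries lay above both. Cdh4 rose from 92.7 to 139 CPM, 1.5-fold (1.30 to 1.73; edgeR adjusted p = 0.00161). Without scramble replicate 1 its log2 fold change was the highest of the settings with a library left out and without scramble replicate 2 the lowest, 0.81 and 0.37.

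Cdh2, the main cadherin of neural tissue, had 91 and 81 counts against 103 and 100. All its anti-miR132-3p values lay above the scramble values, and it was not called (1.24-fold, 1.00 to 1.52; edgeR adjusted p = 0.122). Cdh1, the epithelial cadherin, had 0 scramble counts and 1 and 2 anti-miR132-3p counts. Cdh15, the muscle cadherin, had 14 counts in all, and Cdh3 was listed at 0.

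The 13 classical type II cadherins, whose combinations label bipolar, amacrine and ganglion cell types, had 11 tested members. Of these 2 rose and 0 fell, where 13.5% of all tested genes rose and 10.4% fell. The 2 that rose were at the low end of the family. Cdh22 had 11 and 7 scramble counts and 21 and 27 anti-miR132-3p counts. It rose from 4.92 to 13.7 CPM, 2.79-fold (1.59 to 5.10; edgeR adjusted p = 0.00654). Cdh24 had 5 and 6 counts against 15 and 18, and rose from 3.01 to 9.44 CPM, 3.14-fold (1.55 to 6.89; edgeR adjusted p = 0.00769). In both genes the lowest anti-miR132-3p library was higher than the highest scramble library, and the wide intervals follow from the few counts. Both genes passed the low-count filter only with the anti-miR132-3p libraries, in which they were high, so this separation adds no support to the calls.

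The other 9 tested type II members were not called. Cdh18, Cdh11, Cdh6 and Cdh8 had log2 fold changes of 0.38, 0.37, 0.32 and 0.25. In each of them both anti-miR132-3p libraries lay above both scramble libraries, as they did in 31.1% of all tested genes. Cdh6, which marks a set of direction-selective ganglion cells, had 59 and 60 counts against 69 and 73 (1.25-fold, 0.97 to 1.61). Cdh8, which together with Cdh9 directs bipolar axons to their synaptic layers, had 69 and 79 counts against 84 and 84 (1.19-fold, 0.95 to 1.49).

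Cdh20, Cdh12 and Cdh10 were close to equal in the 2 groups. Cdh20 had 146 and 138 counts against 138 and 143 (1.04-fold, 0.87 to 1.23), Cdh12 105 and 114 against 108 and 103 (1.01-fold, 0.83 to 1.22), and Cdh10 127 and 126 against 103 and 134 (0.98-fold, 0.82 to 1.18). Cdh7 had 94 and 109 counts against 86 and 64. Its anti-miR132-3p libraries were the lower ones (1.29-fold lower, 1.04 to 1.61), without a call (edgeR adjusted p = 0.109). Cdh9 had only 55 counts in all and was not separable at this depth (0.87-fold, 0.49 to 1.53).

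Cdh13 was the 1 member that fell. It encodes T-cadherin, which is held to the membrane by a GPI anchor and has no cytoplasmic tail for catenins. It had 149 and 181 counts in the scramble libraries and 129 and 117 in the anti-miR132-3p ones. The level fell from 90.2 to 70.4 CPM, 1.28-fold lower (1.08 to 1.52; edgeR adjusted p = 0.0435). This call was lost in 12 of 16 alternative settings, among them library totals in place of TMM (adjusted p = 0.0805 by edgeR), limma-voom (adjusted p = 0.0506), DESeq2 (adjusted p = 0.357) and no low-count filter (adjusted p = 0.279 by edgeR). The members that rose also lost calls: Fat4 in 11 settings, Cdh4 and Pcdh18 in 10, and Fat3, Cdh22 and Cdh24 in 9. These are of 16 settings, or 15 for Cdh24, and every tally includes the fits with a library left out. The log2 fold change of Cdh13 was -0.22 without scramble replicate 2.

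**Figure D2:**
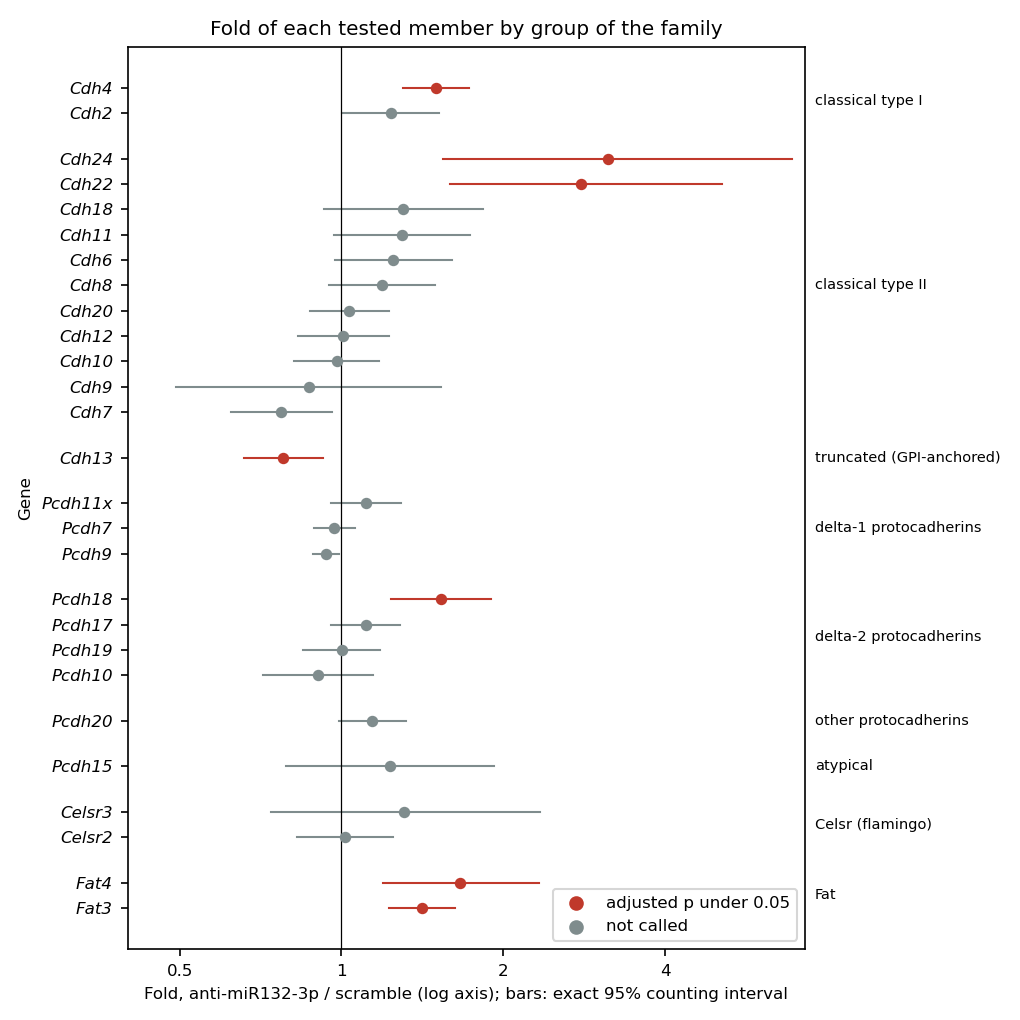
Fold of the anti-miR132-3p over the scramble group for each tested member, from counts summed over the libraries of a group, on a log axis with exact 95% counting intervals, ordered by branch of the family. The 7 called members are red, and the widest interval is that of Cdh24 (1.55 to 6.89).

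The delta-1 protocadherins, which hold the 2 most abundant members, had 3 tested genes and 0 calls. Of all tested genes 13.5% were called higher and 10.4% lower. By unadjusted p, only Pcdh9 was under 0.05. Pcdh7 had 541 and 516 counts against 484 and 496 (0.97-fold, 0.89 to 1.06), the second narrowest interval of the family after Pcdh9 (0.94-fold, 0.89 to 0.99). Pcdh11x, an X-linked protocadherin, had 168 and 173 counts against 169 and 193 (1.11-fold, 0.96 to 1.29). Pcdh1 stayed under the filter with 2 and 0 counts against 6 and 13, a ratio of 9.94 (2.40 to 88.0), and was not tested.

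Of the delta-2 protocadherins, whose tails recruit the WAVE actin regulator, 1 of 4 tested members rose, where 13.5% of all tested genes did. Pcdh18 had 79 and 72 scramble counts and 120 and 101 anti-miR132-3p counts, with no overlap. It rose from 41.3 to 63.2 CPM, 1.53-fold (1.24 to 1.90; edgeR adjusted p = 0.00621). The 3 others were near 1: Pcdh17 (184 and 165 counts against 187 and 183, 1.11-fold, 0.96 to 1.29), Pcdh19, the X-linked gene mutated in an epilepsy of girls (151 and 148 against 134 and 152, 1.00-fold, 0.85 to 1.18), and Pcdh10 (68 and 88 against 70 and 65, 0.91-fold, 0.71 to 1.15). Pcdh8, induced by activity in neurons, had 6 and 1 counts against 4 and 7 and was not tested. Pcdh20 had 205 and 171 counts against 206 and 204 (1.14-fold, 0.99 to 1.32) and was not called.

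Both tested Fat genes rose, where 13.5% of all tested genes did. Fat3, which in the retina shapes the dendrites of amacrine cells, had 185 and 164 counts in the scramble libraries and 244 and 227 in the anti-miR132-3p ones. It rose from 95.4 to 135 CPM, 1.41-fold (1.23 to 1.63; edgeR adjusted p = 0.00138). Fat4, a receptor for the Dachsous cadherins, had 31 and 30 counts against 51 and 46, and rose from 16.7 to 27.8 CPM, 1.66-fold (1.20 to 2.33; edgeR adjusted p = 0.0222). Beside the Fat3 result, Gad2, an enzyme of GABA synthesis in amacrine cells, had 685 and 680 counts against 894 and 901, while Pax6, an amacrine and ganglion cell transcription factor, was at 1612 CPM in the scramble group and 1586 CPM in the other. The amacrine list summed to 2594 and 2646 CPM in the scramble libraries and 2765 and 2709 CPM in the others. Of its 7 tested genes 3 were called higher and 1 lower, where 13.5% and 10.4% of all tested genes were. Of its 12 genes 4 were listed at 0. The part of amacrine cells in the Fat3 difference was not tested. Fat1 had 2 and 3 counts against 0 and 0, too few for a fold, and Fat2 was listed at 0.

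The Celsr genes were not called. Celsr2 had 104 and 92 counts against 91 and 99 (1.01-fold, 0.83 to 1.25), and Celsr3, which guides axon tracts, 11 and 13 against 17 and 13 (1.31-fold, 0.74 to 2.34). Celsr1, the epithelial member, had 0 and 3 counts against 0 and 0. Pcdh15, a tip-link protein of hair cells that photoreceptors also make, had 22 and 18 counts against 24 and 23 (1.23-fold, 0.79 to 1.92), and its tip-link partner Cdh23 was listed at 0.

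The members listed at 0 in all libraries were Cdh3, Cdh5, Cdh16, Cdh17, Cdh19, Cdh23, Cdh26 and Fat2. Cdh5 is the cadherin of endothelium, Cdh3 is found in pigment epithelium, and Cdh16 and Cdh17 belong to kidney and gut. Gad1 and Slc32a1, which amacrine cells use beside Gad2, were also listed at 0. Why a gene was listed at 0 was not tested. The endothelial list, taken without Cdh5, summed to 3.83 CPM in the scramble group and 12.6 in the anti-miR132-3p group, and the pigment epithelium list to 5.19 and 3.15 CPM.

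Separation of the libraries was read against the same count over all genes. Both anti-miR132-3p libraries lay above both scramble libraries in 16 of the 27 tested members, where 31.1% of all tested genes did so. In 3 members, Cdh7, Cdh13 and Pcdh9, they lay below, where 30.7% of all genes did so. The remaining 8 members overlapped.

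These genes have long transcripts, and long transcripts were higher with the anti-miR132-3p shRNA across the whole table. The median principal transcript was 6004 bases for the tested members and 3030 bases for all tested genes, and 26 of the 27 members exceeded the latter. Over all tested genes (not independent of each other), Spearman's rho of the log2 fold change was 0.29 with transcript length and 0.24 with GC content. Of the 3710 tested genes with a transcript over 4000 bases, 20.3% rose and 6.74% fell (median log2 fold change 0.13). Of the 21 members in that class, 4 rose and 0 fell (median 0.19). Among the 7563 shorter genes 10.2% were called higher and 12.2% lower, and of the 6 shorter members 2 were called higher (Cdh22, Cdh24) and 1 lower (Cdh13). The division at 4000 bases was chosen after the values had been seen.

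A correction of each library for GC content and transcript length left 4 members called higher, where 10.9% of all genes were, and 2 called lower, where 8.00% were. The members' median log2 fold change was then 0.10, against 0.03 for all genes. Pcdh18 was the same under both fits (log2 fold change 0.62 and 0.62, edgeR adjusted p = 0.00279 with the correction), and Fat3 kept its call at 0.41 (edgeR adjusted p = 0.00244). Cdh22 and Cdh24, whose transcripts are rich in GC (62.7% and 61.2%, against a median of 49.5% for all tested genes), moved from 1.47 to 1.02 and from 1.63 to 1.23, with edgeR adjusted p = 0.0456 and 0.0420. Cdh13 moved from -0.36 to -0.50 (edgeR adjusted p = 0.0028). The calls of Cdh4 and Fat4 were lost, at 0.29 and 0.54 (edgeR adjusted p = 0.0575 and 0.0991). Celsr2, at 0.02 without the correction, was called lower with it, at -0.41 (edgeR adjusted p = 0.0403). What part of each difference belongs to length or GC content was not tested.

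**Figure D3:**
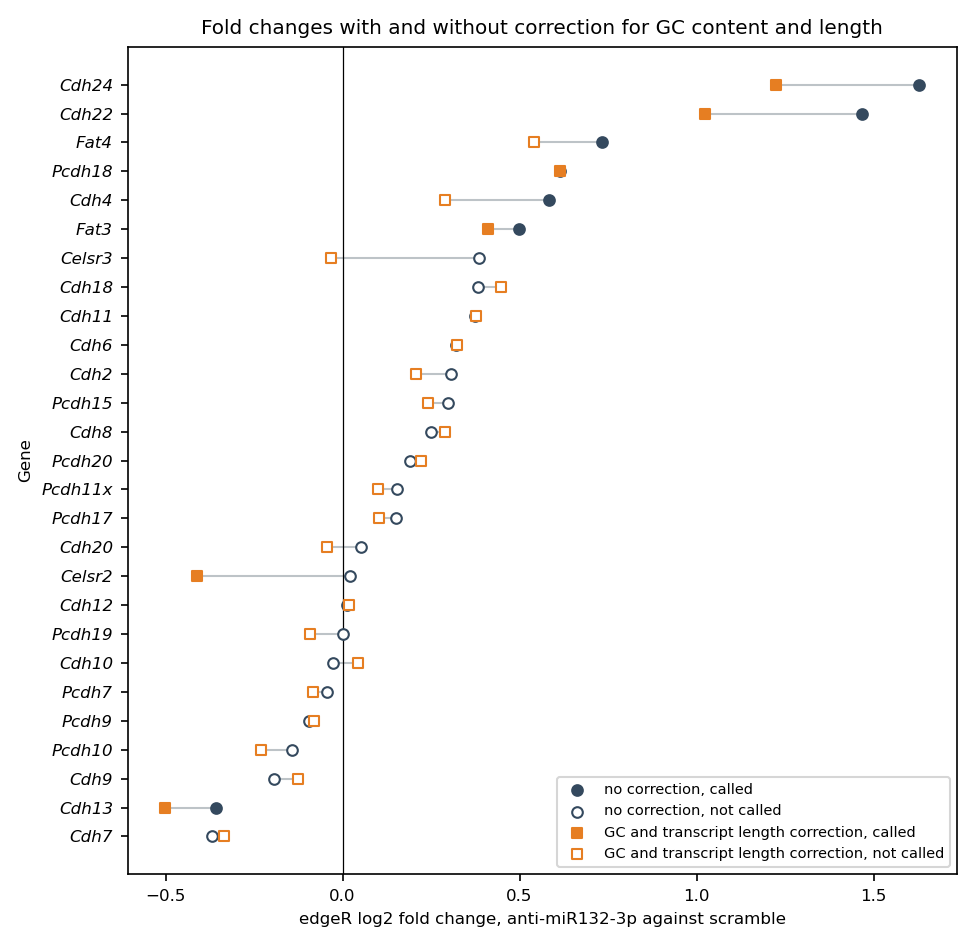
edgeR log2 fold change of each tested member without a correction (circles) and with a correction for GC content and transcript length (squares), filled where the adjusted p was under 0.05. The longest shifts are those of Celsr2, Celsr3, Cdh22 and Cdh24, all to the left, and Pcdh18 does not move.

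With any 1 of the 4 libraries removed, the fits by edgeR's quasi-likelihood test had a single library in a group, so only their effect sizes are read. No other tool was run on 3 libraries. Those fits had 1.51 to 1.67 prior degrees of freedom, against 14.1 with all libraries, and lost the calls of every gene alike, so the loss says nothing of a single member. In these fits the log2 fold changes were 0.41 to 0.58 for Fat3, 0.66 to 0.81 for Fat4 and 0.49 to 0.73 for Pcdh18. They were 1.18 to 1.82 for Cdh22 and 1.49 to 1.76 for Cdh24. The 7 called members kept their direction, but this was fixed beforehand. In each of them the libraries of the groups did not overlap, so leaving out a library could not turn the sign. DESeq2 on all 4 libraries called 2 members, Cdh4 and Fat3.

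The proteins that work with these cadherins were examined as fixed lists. Of 12 tested catenins and adherens junction adaptors, 4 rose and 1 fell, where 13.5% of all tested genes rose and 10.4% fell. The list's median log2 fold change was 0.22, and 0.12 after the GC and length correction, where all genes were at 0.03. The nectins, which start adherens junctions, led: Nectin4 had 7 and 1 scramble counts and 13 and 16 anti-miR132-3p counts (3.79-fold higher, 1.69 to 9.60). Nectin4 passed the low-count filter only with the anti-miR132-3p libraries, in which it was high. Nectin2 had 22 and 22 counts against 41 and 51 (2.19-fold higher, 1.51 to 3.21), and Nectin1 35 and 32 against 68 and 64 (2.06-fold higher, 1.53 to 2.81). The member called lower was Pkp4, a relative of p120-catenin, at a log2 fold change of -0.41. The 7 tested genes that shed cadherin ectodomains, among them Adam10 and the presenilins, had 0 calls by edgeR and a median of -0.0018.

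Of the 13 tested actin effectors of delta protocadherins, 4 rose and 2 fell, against the same 13.5% and 10.4% of all genes (median 0.01, or 0.11 after the correction). Wasf3, a WAVE protein, had 48 and 65 counts against 144 and 118 (2.43-fold higher, 1.94 to 3.05). Cyfip2, a WAVE complex subunit, had 797 and 768 counts against 1041 and 1090 (1.42-fold higher, 1.33 to 1.52), and Brk1, the smallest subunit, 92 and 109 against 133 and 147 (1.46-fold higher, 1.21 to 1.76). The 2 lower genes were the phosphatase subunits Ppp1cb and Ppp1ca, at log2 fold changes of -0.23 and -0.17.

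Of the 8 tested planar polarity partners of Celsr, 2 rose and 0 fell, against 13.5% and 10.4% of all genes (median 0.33, or 0.08 after the GC and length correction). Prickle2 had 72 and 70 counts against 112 and 116 (1.68-fold higher, 1.36 to 2.09), and Ankrd6 37 and 59 against 95 and 74 (1.84-fold higher, 1.42 to 2.39). Of the 8 tested Dachsous, Four-jointed and Hippo genes, 0 were called higher and 1 lower: Wwc1, the Hippo scaffold KIBRA, had 40 and 33 counts against 15 and 22 (1.89-fold lower, 1.25 to 2.88). The 4 tested Usher partners of Cdh23 and Pcdh15 had 0 calls by edgeR, and 0 of the 9 desmosomal cadherins had enough counts to be tested.

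Other genes with cadherin repeats that the naming rule leaves out had 3 of 5 tested members called higher and 0 lower, where 13.5% and 10.4% of all genes were. Their median log2 fold change was 0.48, and 0.15 after the GC and length correction. The calsyntenin Clstn3, a synaptic organiser, had 48 and 34 counts against 92 and 95 (2.39-fold higher, 1.83 to 3.13), and Clstn1, which links cargo to kinesin, 191 and 193 against 268 and 242 (1.39-fold higher, 1.22 to 1.59). Ret, the receptor of the GDNF family, had 60 and 64 counts against 101 and 109 (1.77-fold higher, 1.41 to 2.23). With the GC and length correction Clstn1 was at a log2 fold change of 0.15 and no longer called (edgeR adjusted p = 0.284).

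**Figure D4:**
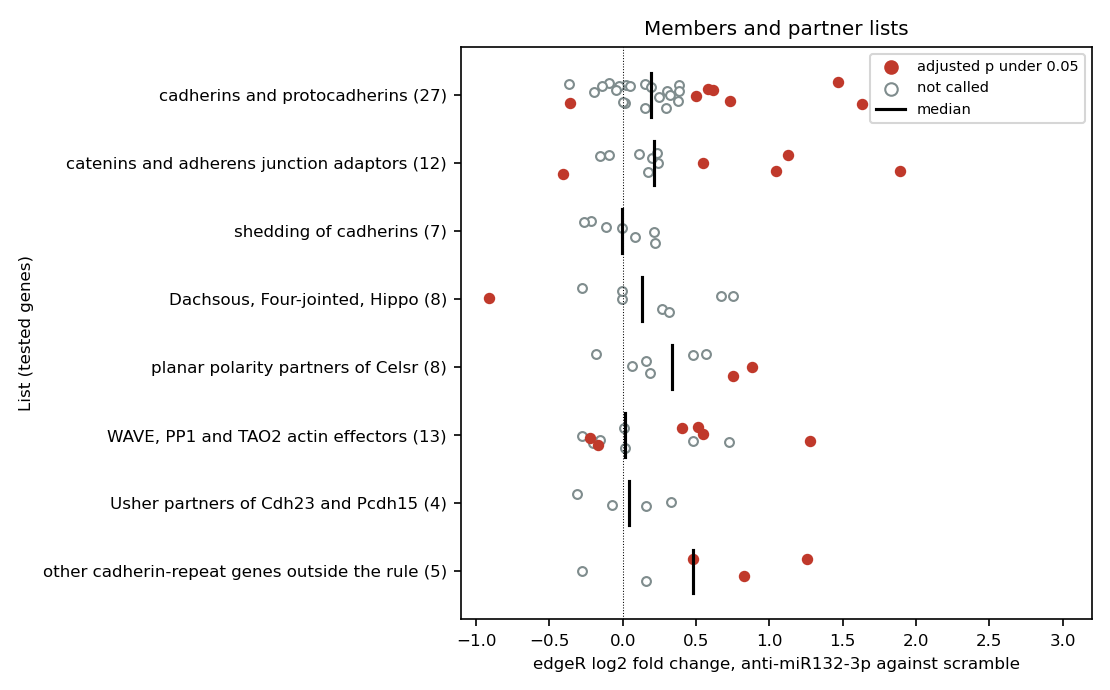
edgeR log2 fold change of each tested gene in the family and in the partner lists, with the number tested in brackets, called genes in red and the median as a black line. The medians lie between -0.0018 (shedding) and 0.48 (other cadherin-repeat genes), and the genes farthest to the right are Nectin4, Cdh24 and Cdh22.

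Several members are neighbours on their chromosome, with no other protein-coding gene between them in RefSeq (GRCm38.p6). There were 8 such pairs, covering 13 genes. In the run Cdh6, Cdh9, Cdh10 and Cdh12 the log2 fold changes were 0.32, -0.19, -0.03 and 0.01, with 0 calls by edgeR. Cdh8 and Cdh11 were at 0.25 and 0.37, next to Cdh5 at 0 counts, and Pcdh20 and Pcdh9 at 0.19 and -0.09. None of the 7 called members was in such a pair.

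Some members share exon positions with other annotated genes, and the strand setting of the counting is not given in the sources used here. In GENCODE M21 the called gene Fat4 overlapped C230034O21Rik on the opposite strand, which had 1 and 4 counts against 6 and 4. Of the remaining overlapping genes with values, Gm49685 on the strand of Cdh12 had the most, 18 counts in all.

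Markers of other cells differed between the groups as follows. The Müller glia list was at 1209 CPM in the scramble group and 1766 in the anti-miR132-3p group, of which Dkk3 was 1081 and 1595. Of its 6 tested genes 2 were called higher, Dkk3 and Apoe (18.9 and 62.4 CPM), and 0 lower. Of all tested genes, 13.5% were called higher and 10.4% lower. Glul was at 70.3 and 65.5 CPM, Sox9 at 9.84 and 16.6, Rlbp1 at 12.0 and 7.44 and Vim at 7.66 and 9.44, without a call. Rod markers summed to 95.4 and 21.7 CPM with Gnat1 at 0, astrocyte markers to 24.6 and 13.7, microglia markers to 60.4 and 67.2, and other leukocyte markers to 3.01 and 51.8. Most of the leukocyte sum was Cd74 (1.37 and 36.0 CPM) and H2-Ab1 (1.64 and 13.4 CPM), the only 2 tested genes of that list, both called higher by edgeR. Of the 8 leukocyte genes 5 were listed at 0. The part of these other cells in the differences of the cadherins was not tested.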

How the data were processed

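The authors deposited whole-number counts per gene for 78334 identifiers in 4 columns. Trimmomatic 0.39, HISAT2 2.2.1, SAMtools 1.10 and the Cufflinks tools (Cuffnorm, Cuffdiff) are listed, for GRCm39, per the submitters' processing notes. Which program counted reads, against which annotation and with what strand setting, is not given in the sources used here. Symbols were found for 51486 identifiers by Ensembl ID. Unnamed ones held 0.433% to 0.437% of the counts. Depth was 1731199 to 1846637 counts a library.

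Lengths, GC content and 3' UTRs came from GENCODE M21, of an older build than the counts, so no gene coordinates are given. Counts were fitted in R 4.3.3 with edgeR 4.0.16 (filterByExpr, TMM, glmQLFit with legacy FALSE, glmQLFTest, Benjamini-Hochberg over all 11427 tested genes). limma 3.58.1 and DESeq2 1.42.0 were alternatives, and Python 3.11.15 with scipy 1.17.1 gave intervals. Folds are ratios of TMM-scaled CPM of summed counts. The correction took spline fits (4 degrees of freedom) of each library's log2 deviations on GC content and transcript length as offsets, for 11273 genes. The rule for named genes took called members, the 12 members of highest CPM, members changed at least 1.5-fold, undetected members, and up to 3 called genes with a mean of at least 5 CPM of each partner list. Other genes named were chosen after their values were seen. Members and lists were chosen with earlier results of these data known. One gene planned for the adherens junction list was not analysed here.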

Additional observations from a re-analysis of the deposited data

How the results depend on the processing

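All alternatives were planned. The numbers of the replicates did not pair the libraries by any label, and the deviations of same-numbered libraries correlated at 0.0125 across genes. With the replicate block 6 members were called higher and 1 lower, and 1740 and 1437 genes. With no low-count filter edgeR called 0 and 0 members and 1 and 2 genes, with a members' median of 0.27. A filter of 1 CPM in 2 libraries gave 0 and 0 members and 307 and 183 genes by edgeR, with a median of 0.25. At an unadjusted p under 0.05 by edgeR were 11 of 34 tested members with no filter and 11 of 31 with that of 1 CPM. The share of all genes at that p is not given for these 2 fits. DESeq2 called 2 and 0 members and 481 and 274 genes, and gave no adjusted p for Cdh24. An adjusted p under 0.01 left 5 and 0 members and 856 and 547 genes, and a minimum of 1.5-fold 4 and 0 members and 969 and 268 genes. When pairs were summed and a coefficient of variation was assumed, 0.1 gave 1 member (Cdh22) and 0, and 415 and 47 genes, 0.2 gave 0 and 0 members and 43 and 6 genes, and 0.4 gave 0 and 0 members and 6 and 1 genes. Library totals and limma-voom each gave 0 members lower. The GC and length correction gave 2 lower and a median of 0.10. Leaving out 1 library gave 0 to 0 members and 0 to 0 genes higher and lower, and a median of 0.16 to 0.22, taking the single library to vary as the pair does. The prior degrees of freedom were 14.1 in the fit reported, 1.51 to 1.67 with a library left out (residual 1 in place of 2) and 1.16 with no filter (residual 2). The cause of the lost calls was not tested. Signs turned only in uncalled members. With a library left out the called members could not turn, because their libraries did not overlap between the groups. With a library left out, Cdh10 ranged from -0.23 to 0.15, Cdh12 from -0.05 to 0.066, Cdh9 from -0.51 to 0.069, Celsr2 from -0.071 to 0.11, Pcdh10 from -0.32 to 0.048 and Pcdh19 from -0.091 to 0.093. With the correction Cdh10 was at 0.043, Cdh20 at -0.043, Celsr2 at -0.41, Celsr3 at -0.032 and Pcdh19 at -0.092. Pcdh19, at 0.0020 in the fit reported, was at -0.0020 with RLE scaling, no filter and DESeq2, at -0.0010 with the filter of 1 CPM and at -0.000 with limma-voom.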

Other observations

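The clustered protocadherins, which the rule leaves out, were looked at after the other values had been seen. They are arrays of variable exons that in the alpha and gamma clusters share constant exons, so counts of single isoforms are uncertain. Of 22 gamma genes, 4 were tested, and 3 were called higher by edgeR and 0 lower, where 13.5% and 10.4% of all tested genes were. Of these 3, Pcdhga7 and Pcdhgb4 passed the low-count filter only with the anti-miR132-3p libraries, in which they were high. The summed gamma counts were 79 and 63 with the scramble shRNA and 130 and 143 with the anti-miR132-3p shRNA. Pcdhga7 had 4 and 2 counts against 10 and 15, Pcdhgb4 5 and 3 against 14 and 13, and Pcdhgc4, an isoform known for neuronal survival, 20 and 13 against 24 and 40. Of 22 beta genes, which have no constant exons, 20 were tested and 0 called by edgeR (median log2 fold change 0.24), with summed counts of 814 and 781 against 882 and 817. Of 14 alpha genes, 8 were tested and 0 called (median -0.15), with 113 and 151 counts against 127 and 105. Whether the gamma genes differ from the alpha and beta genes was not tested.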
